A study of Mus musculus with 346 samples.

Results

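The 10 transcription factors followed here mark or specify the lineages of the mammary epithelium, and were measured through single cells of the post-natal mouse gland: Trp63, Elf5, Gata3, Foxa1, Ehf, Elf3, Grhl2, Sox9, Tbx3 and Id4. They were chosen by name, with earlier results of these data known, and all 10 were found by Entrez number among the 25142 genes analysed. The cells came from FVB/NJ mice, an inbred wild-type strain, with no transgene or treatment named, at pre-puberty (2 weeks of age), puberty (4.7 to 4.9 weeks) and adulthood (10 weeks). They were sorted as total epithelium and captured one by one on the Fluidigm C1 chip. Of 144, 136 and 66 labelled cells, 116, 119 and 44 passed the coverage filter, 279 in all, with 109387 to 1188649 reads each. Which mouse a cell came from is not labelled, so each stage is 1 sample, no test between stages or cell classes was possible, and all intervals below (95%) cover counting error only. Fewer cells with a factor and less of its RNA in each cell both lower a pooled level, so shares of cells are given beside it.

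The mammary duct has an outer basal layer of contractile cells, marked by keratin 14, and an inner luminal layer, marked by keratins 8 and 18, which holds progenitors and hormone-sensing mature cells. Transcription factors keep these identities apart. Trp63 (p63) maintains basal epithelia, Elf5 drives the secretory alveolar programme from luminal progenitors, and Gata3 and its partner Foxa1 act in hormone-sensing luminal cells with the oestrogen receptor. Ehf and Elf3 are epithelium-specific relatives of Elf5 in the ETS family, Grhl2 controls epithelial junction genes, Sox9 and Tbx3 act in ductal and progenitor cells, and Id4 is an inhibitor of helix-loop-helix factors known from the basal layer.

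Before the values, the start regions of the factors for which the reference held a window are shown, since the factors divide below into those that are almost absent before puberty and those that are not. RefSeq (GRCm38.p6, the same assembly as mm10) gave 6 windows of 300 bases, from 250 before to 50 after an annotated start, for 5 of the 10 factors. Of the 2 windows of Elf5 the one downstream is printed. The windows of Foxa1 and Gata3 also lie at starts inside the gene, downstream of its outer 5′ end (chr12:57548029 and chr2:9887953). Sequences run 5′ to 3′ on the strand of the gene, and capitals mark CpG dinucleotides and, in Foxa1, a run of 7 forkhead letters.
Elf5, chr2:103423818-103424117, strand +: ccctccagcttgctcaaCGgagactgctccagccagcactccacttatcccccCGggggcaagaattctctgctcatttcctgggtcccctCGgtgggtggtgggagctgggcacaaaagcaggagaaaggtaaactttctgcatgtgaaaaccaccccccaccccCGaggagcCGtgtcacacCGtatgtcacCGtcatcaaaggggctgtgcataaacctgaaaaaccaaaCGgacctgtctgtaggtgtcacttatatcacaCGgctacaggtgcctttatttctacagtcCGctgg
Foxa1, chr12:57546062-57546361, strand -: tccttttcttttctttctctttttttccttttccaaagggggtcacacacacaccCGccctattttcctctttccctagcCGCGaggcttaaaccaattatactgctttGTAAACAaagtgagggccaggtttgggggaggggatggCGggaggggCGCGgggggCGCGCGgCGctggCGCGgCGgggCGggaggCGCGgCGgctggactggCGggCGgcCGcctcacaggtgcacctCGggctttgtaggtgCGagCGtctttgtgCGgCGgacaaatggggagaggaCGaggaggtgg
Elf3, chr1:135258423-135258722, strand -: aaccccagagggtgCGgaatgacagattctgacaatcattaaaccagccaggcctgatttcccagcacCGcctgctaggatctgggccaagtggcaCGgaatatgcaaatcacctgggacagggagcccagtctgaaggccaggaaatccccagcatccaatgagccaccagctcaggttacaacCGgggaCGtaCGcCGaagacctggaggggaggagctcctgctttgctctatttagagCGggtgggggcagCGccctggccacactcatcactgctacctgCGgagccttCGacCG
Gata3, chr2:9878551-9878850, strand -: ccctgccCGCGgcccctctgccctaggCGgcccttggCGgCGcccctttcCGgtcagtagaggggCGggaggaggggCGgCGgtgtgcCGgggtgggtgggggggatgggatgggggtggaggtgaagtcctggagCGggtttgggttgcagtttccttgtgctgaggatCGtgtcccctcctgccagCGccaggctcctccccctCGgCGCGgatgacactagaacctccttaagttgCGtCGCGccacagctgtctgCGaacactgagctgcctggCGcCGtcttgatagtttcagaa
Id4, chr13:48260866-48261165, strand +: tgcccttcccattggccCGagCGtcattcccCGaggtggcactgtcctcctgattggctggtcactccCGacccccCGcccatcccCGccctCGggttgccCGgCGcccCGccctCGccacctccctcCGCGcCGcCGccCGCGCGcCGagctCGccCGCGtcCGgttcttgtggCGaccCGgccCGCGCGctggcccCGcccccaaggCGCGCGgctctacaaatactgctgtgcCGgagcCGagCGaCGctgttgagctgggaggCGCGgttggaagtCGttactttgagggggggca
The printed windows held 10 CpG in Elf5, 26 in Foxa1, 12 in Elf3, 22 in Gata3 and 39 in Id4, against a median of 7 over all 32851 windows. The other Elf5 window, chr2:103411848-103412147, held 3. Foxa1, which was almost absent before puberty, and Gata3 and Id4, which were not, all had CpG-rich windows. Elf5 and Elf3, also almost absent, had the lowest numbers among the printed windows. The windows cover 5 of the 10 factors, and whether CpG number goes with the stage pattern was not tested. The forkhead letters TGTTTAC, read on either strand, occurred once in the Foxa1 window, as GTAAACA on the gene's strand with its first base 141 before the start, and in 3.65% of all windows. The same search found none of 4 other motifs in the 6 member windows. The ETS letters CGGAAG were in 16.9% of all windows, and the GATA letters AGATAA in 11.2%. The grainyhead letters AACCGGTT occurred in 0.146% of all windows, and the letters TATAAA of the TATA box in 13.6%. A match or its lack describes these letters only. Elf5 and Ehf are neighbours on chromosome 2 (Ehf at chr2:103263431-103303275, Elf5 at chr2:103412098-103450989), separated by 108.8 kb with 0 protein-coding genes wholly between them.

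In all, 4 of the factors, Foxa1, Ehf, Elf3 and Elf5, were nearly missing from pre-pubertal cells and present from puberty on, Gata3 and Sox9 went from a minority of cells to nearly all of them, and Tbx3 differed least between stages in its pooled level. Levels are counts per 1000000 reads (CPM) of all kept cells of a stage together. Shares are cells with 1 or more reads after each cell was thinned to 100000 reads, so that each cell has the same number of reads. The number of genes found was still unequal: after thinning a cell had a median of 2859 genes before puberty, 2694 at puberty and 2151 in the adult. Adult shares are thus from cells with fewer genes found of any kind, and the part of this in the lower adult shares was not tested.

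Foxa1 had 1 read in all 116 pre-pubertal cells (0.0246 CPM), 152.2 CPM at puberty and 143 CPM in the adult. Its share of cells was 0.862% (interval 0.0218 to 4.71), 46.2% (37.0 to 55.6) and 25.0% (13.2 to 40.3). Against that single read the pubertal level was 6194 times higher, with a counting interval of 1111 to 244672. A single adult cell held 59.1% of the Foxa1 reads of its stage (61.2 CPM without it).

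Ehf had 2 reads at pre-puberty (0.0491 CPM), 104 CPM at puberty and 276 CPM in the adult, in 0.862%, 26.9% (19.2 to 35.8) and 27.3% (15.0 to 42.8) of cells. The pubertal level was 2120 times that of the 2 reads (counting interval 587 to 17508). The higher adult level of Ehf thus came with a like share of cells, and its positive cells had a median of 127 CPM at puberty and 551 CPM in the adult.

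Elf3 had 0.983 CPM before puberty, of which cell 140 held 92.5%, then 74.0 and 51.5 CPM (31.8 without the top adult cell). Cells with Elf3 made up 1.72%, 29.4% (21.4 to 38.5) and 18.2% (8.19 to 32.7). Elf5 was the rarest of the 10 at puberty, with 0.197 CPM from 8 reads, then 9.95 and 28.3 CPM, in 1.72%, 5.88% (2.40 to 11.7) and 13.6% (5.17 to 27.4) of cells. Its pooled levels rest on few cells: pubertal cell 16 held 55.1% and adult cell 30 held 62.1% of their stage's reads, and without them Elf5 was at 4.51 and 11.1 CPM. The order of the stages for Elf5 was the same with and without those cells, but among cells with 200000 to 600000 reads Elf5 was lower in the adult than at puberty (log2 ratio -0.98).

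Gata3 stood at 42.5 CPM (40.5 to 44.6) before puberty, 561 at puberty and 864 in the adult. The share of cells with Gata3 was 19.8% (13.0 to 28.3), 95.0% (89.3 to 98.1) and 88.6% (75.4 to 96.2). By stage, the median cell had 0, 413 and 364 CPM, and the highest reached 731, 3033 and 5133 CPM, so the higher adult pool was not seen in the median cell. The pooled log2 ratio of adult over puberty was 0.62, and 0.54 without the top cell of each stage. Sox9 had the highest level of the 10 at puberty, with 56.6, 1592 and 814 CPM, in 33.6% (25.1 to 43.0), 96.6% (91.6 to 99.1) and 93.2% (81.3 to 98.6) of cells. Its median cell had 0, 1015 and 173 CPM, and its highest 1995, 15192 and 5365 CPM. Sox9 was in nearly every pubertal and adult cell, at a median several times lower in the adult.

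Grhl2 was at 5.38, 60.8 and 33.2 CPM, in 12.9% (7.42 to 20.4), 57.1% (47.7 to 66.2) and 27.3% (15.0 to 42.8) of cells, and 1 adult cell held 70.8% of its reads (10.1 CPM without it). Its intervals at puberty and in the adult did not overlap in the share of cells.

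The remaining 3 were found in pre-pubertal cells too. Tbx3 was at 44.0, 69.0 and 66.8 CPM, in 35.3% (26.7 to 44.8), 42.0% (33.0 to 51.4) and 31.8% (18.6 to 47.6) of cells. Id4 was at 15.7, 43.1 and 67.9 CPM, but without the top cell of each stage at 11.7, 28.6 and 21.6 CPM, since 1 cell held 69.5% of the adult reads. Its share of cells was 18.1%, 16.8% and 20.5% by stage, with overlapping intervals. Among cells with 200000 to 600000 reads the Id4 ratio of puberty over pre-puberty was -0.081 instead of 1.22. Trp63 was at 26.0, 65.1 and 138 CPM, in 16.4% (10.2 to 24.4), 22.7% (15.5 to 31.3) and 22.7% (11.5 to 37.8) of cells. Adult cell 57, which was only just above the minimum of 1500 genes, held 43.7% of the adult Trp63 reads, and without it the adult level was 79.2 CPM. For Trp63, Tbx3 and Id4 the intervals of the share of cells overlapped between all stages.

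**Figure D1:**
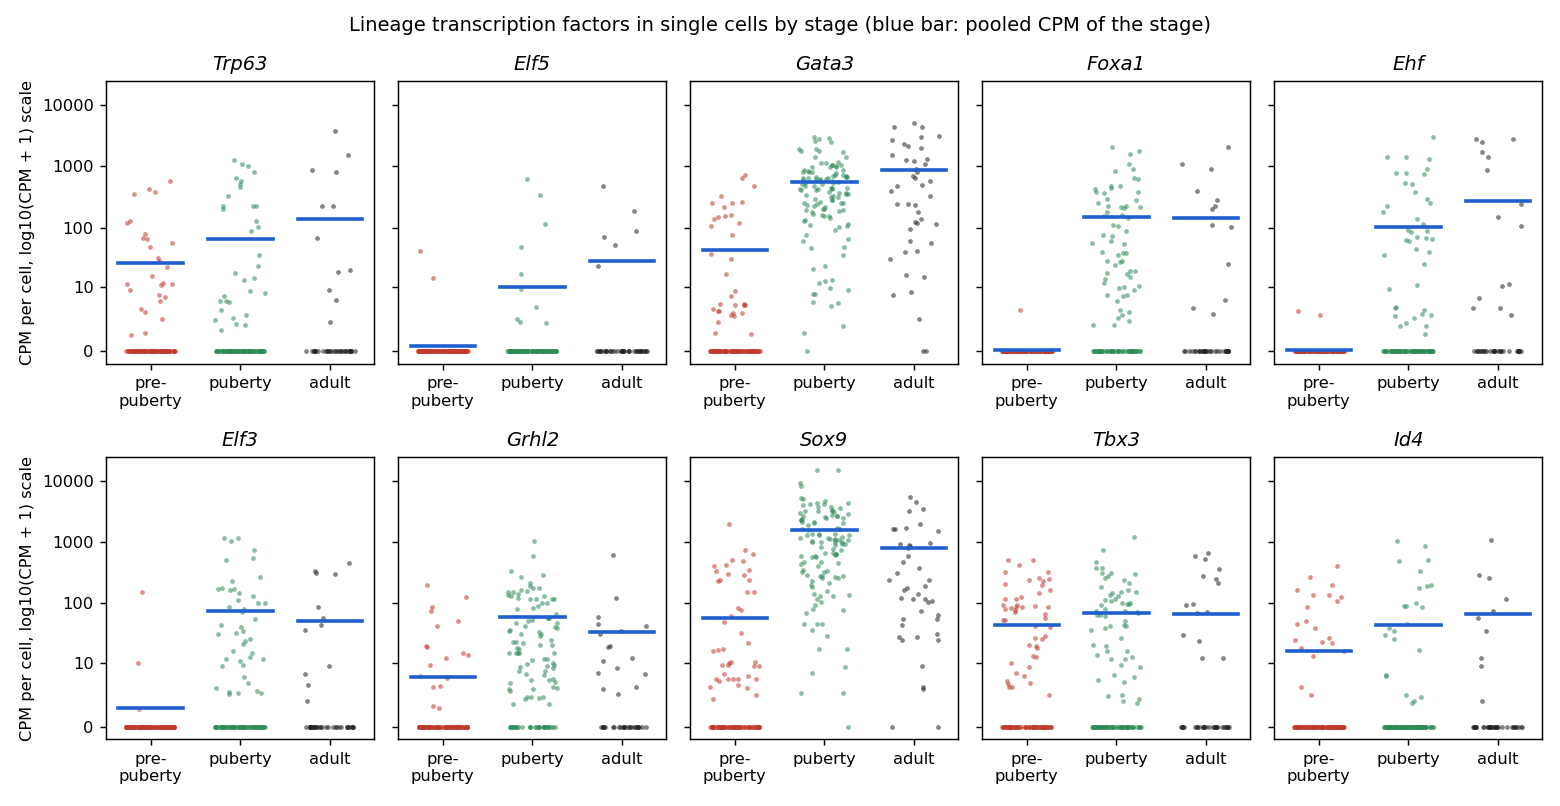
Each panel plots 1 factor, with a point for the CPM of each kept cell on a log10(CPM + 1) axis at pre-puberty (red, n = 116), puberty (green, n = 119) and adulthood (black, n = 44), and a blue bar for the pooled CPM. Gata3 and Sox9 move from mostly 0 to nearly all cells after pre-puberty, Foxa1 and Ehf have 1 and 2 pre-pubertal cells above 0, and the Tbx3 points lie at similar heights at all 3 stages.

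**Figure D2:**
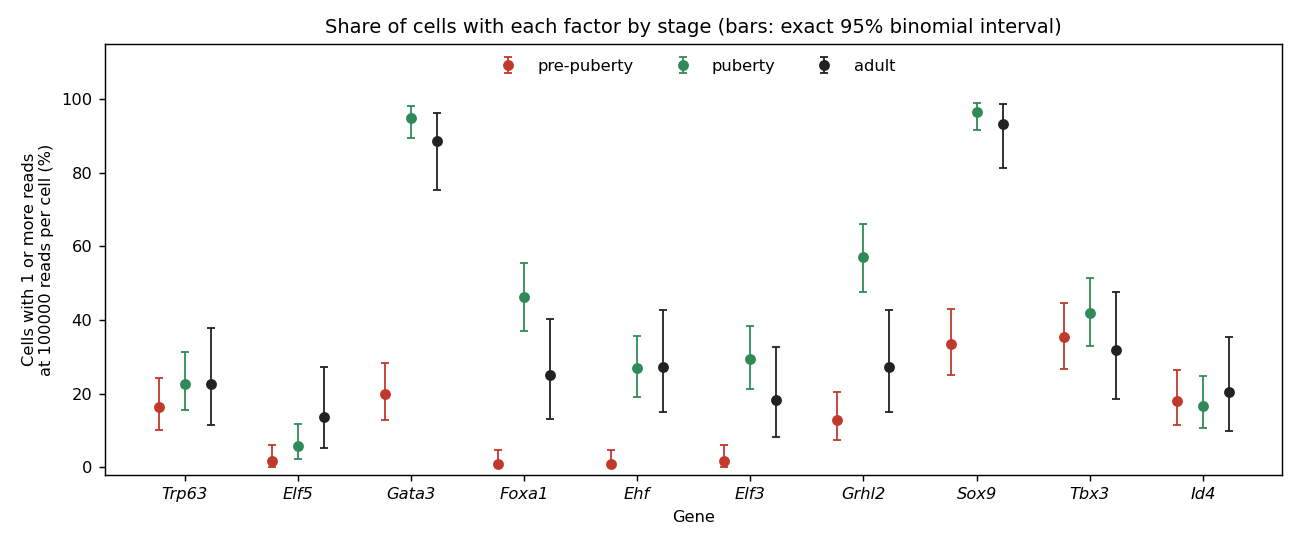
Points give the percentage of cells with 1 or more reads of each factor after thinning to 100000 reads, by stage, and bars the exact 95% binomial interval. The pre-pubertal and pubertal intervals are apart for Gata3, Foxa1, Ehf, Elf3, Grhl2 and Sox9, and overlap for Trp63, Elf5, Tbx3 and Id4.

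Stages were compared as log2 ratios with 5 CPM added on each side, so the change of low genes is understated. Of the 9 factors at 10 CPM or more at either stage, 8 were higher at puberty than before it by over 1 log2 unit and 0 were lower, where 24.0% of all 9868 genes at that level were higher and 21.4% lower. The median of the 9 was 3.58, against 0.12 for all those genes. The exception was Tbx3, at 0.59. Between adult and pre-puberty 9 of 10 were higher, against 28.9% of genes higher and 31.7% lower, with medians of 2.96 and -0.02. Without the top cells Grhl2 (0.79) and Id4 (0.67) were no longer among them, and among cells with 200000 to 600000 reads only 5 of the factors at 10 CPM or more were higher. Between adult and puberty 3 were higher (Trp63 1.03, Elf5 1.15 and Ehf 1.36) and 0 lower, against 20.7% higher and 28.4% lower. That count rests on single cells: leaving out the top cell of each factor at each stage left 1 higher, Ehf at 1.09, and put 2 lower, Grhl2 at -1.95 and Sox9 at -1.03. Without adult cell 57 the Trp63 ratio fell from 1.03 to 0.26.

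Levels of different genes were compared per 1000 bases of counted length, as RPKM. Before puberty Sox9 (13.7 RPKM), Gata3 (13.2), Id4 (9.47) and Tbx3 (8.66) were the most abundant of the 10, and Foxa1 (0.00771) and Ehf (0.0112) the least. At puberty the order was Sox9 (384), Gata3 (175), Foxa1 (47.7), Elf3 (37.0), Id4 (26.0), Ehf (23.7), Tbx3 (13.6), Grhl2 (12.3), Trp63 (10.7) and Elf5 (4.43). In the adult Gata3 (269) and Sox9 (196) exchanged places and Ehf (62.9) came next, followed by Foxa1 (44.9), Id4 (40.9), Elf3 (25.7), Trp63 (22.8), Tbx3 (13.1), Elf5 (12.6) and Grhl2 (6.70). Single cells set much of the adult order below Sox9: without its own top cell Ehf was at 42.9 RPKM, Foxa1 at 19.2, Id4 at 13.0 and Elf5 at 4.96. In the pubertal order Foxa1 and Elf3, Id4 and Ehf, Tbx3 and Grhl2, and Grhl2 and Trp63 differed by less than the top cell of one of the pair held.

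The labelled cell type had its markers in pubertal and adult cells, and few of them in pre-pubertal ones. Of 14 epithelial markers, among them Epcam, Cdh1 and the keratins, the median cell had 1 before puberty, 10 at puberty and 8 in the adult. Of 20 Schwann cell genes, the glia of peripheral nerve, it had 15, 2 and 2. Of 10 fibroblast markers it had 4, 1 and 1, with a median summed level of 6083, 30.3 and 222 CPM, and of 15 basal markers it had 3, 3 and 7. Epcam, an adhesion protein of epithelial cells, was at 16.4, 941 and 1455 CPM, and Sox10, a factor of neural crest derivatives that mammary progenitors also express, at 253, 37.4 and 32.8 CPM. These lists move with the stage, and their part in the stage differences of the 10 factors was not tested.

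Within the pre-pubertal cells Gata3 and Trp63 were found more often where Krt14 was, with intervals apart, and Sox9 with intervals that just overlapped. Of 31 cells with Krt14 after thinning, 54.8% (36.0 to 72.7) had Gata3, against 7.06% (2.63 to 14.7) of the 85 without. For Sox9 the shares were 54.8% (36.0 to 72.7) and 25.9% (17.0 to 36.5), and for Trp63 35.5% (19.2 to 54.6) and 9.41% (4.15 to 17.7). The shares of Grhl2 were 19.4% (7.45 to 37.5) and 10.6% (4.96 to 19.2), of Id4 25.8% (11.9 to 44.6) and 15.3% (8.40 to 24.7), and of Tbx3 41.9% and 32.9%, all with overlapping intervals. Since most pre-pubertal cells lacked Krt14, so did most cells with Sox9 (22 of 39), Grhl2 (9 of 15), Id4 (13 of 21) and Tbx3 (28 of 41), while 17 of 23 Gata3 cells and 11 of 19 Trp63 cells had it. In the 14 cells with Epcam, Gata3 was in 64.3% (35.1 to 87.2), against 13.7% (7.71 to 22.0) of the other 102. Foxa1 and Ehf had no read in the Epcam cells. Cells 1 to 37 and cells from 38 on, which differed in depth, had Trp63 at 51.0 and 17.2 CPM and Sox9 at 20.5 and 69.2 CPM, while Gata3 was in 25.0% and 19.2% of their cells, and Foxa1 and Ehf had 0 reads in the first set and 1 and 2 in the second. The first set holds only 12 kept cells.

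A pre-pubertal cell had a median of 1 of the 10 factors (0 to 5), a pubertal cell 5 (0 to 8) and an adult cell 3.5 (1 to 7), where the number of all genes found was also lowest in the adult, as given above. None of the 10 was found in 25.9% of pre-pubertal, 2.52% of pubertal and 0% of adult cells. At least 5 were found in 2.59%, 50.4% and 27.3%. The 3 pre-pubertal cells with 5 factors all had Krt14: cells 8 and 50 had Trp63, Gata3, Sox9, Tbx3 and Id4, and cell 140 had Elf3 in place of Tbx3. Cells 8, 50 and 140 also had 17, 10 and 13 of the Schwann cell genes, where the median pre-pubertal cell had 15. Of the epithelial markers they had 5, 4 and 6, where that median was 1, and their Epcam was at 0, 0 and 12.5 CPM. Krt14 alone thus does not mark these cells as clearly basal epithelium.

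Cells were then sorted by keratins at above 40 RPKM. At puberty 29 cells were Krt14-positive, of which 24 also had Krt8 or Krt18, 80 had Krt8 or Krt18 only and 10 had none of these. In the adult the numbers were 19 (14 of them with Krt8 or Krt18), 22 and 3. Cells near the threshold made up a larger part in the adult. Krt14 was between 20 and 80 RPKM in 4 of 119 pubertal and 5 of 44 adult cells, Krt8 in 9 and 7, and Krt18 in 6 and 6. Of 14 basal markers without Krt14 the median cell with both keratins had 10 at puberty and 10.5 in the adult, against 1 and 1.5 in cells with Krt8 or Krt18 only. The cells with both keratins carried luminal markers as well: at puberty their median was 5 of 8 luminal and 4.5 of 10 mature luminal markers, against 6 and 5 in cells with Krt8 or Krt18 only, and in the adult 3.5 and 2.5, against 5 and 5. Before puberty 97 of 116 cells were above the threshold for none of the keratins and only 2 had Krt8 or Krt18 alone, so the classes were compared at the later stages. Most Krt14-positive cells thus also had luminal keratins, and cells with Krt14 only numbered 5 at each stage.

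Id4 followed Krt14 at both stages. At puberty Id4 was in 44.8% (26.4 to 64.3) of Krt14-positive cells and 7.50% (2.80 to 15.6) of cells with Krt8 or Krt18 only, and its levels were 120 and 8.54 CPM (64.7 and 1.59 CPM without the top cell of each class). In the adult it was in 47.4% (24.4 to 71.1) of Krt14-positive cells and in 0 of 22 others, which allows a share of up to 13.6%, and its levels were 166 and 0.0996 CPM, the latter from 1 read. Adult cell 24 held 69.6% of the reads of the Krt14-positive class, which was at 56.4 CPM without it.

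Trp63 had a higher share in Krt14-positive cells than in cells with Krt8 or Krt18 only. At puberty the shares were 37.9% (20.7 to 57.7) against 12.5% (6.16 to 21.8), with intervals that just overlapped. In the adult they were 47.4% (24.4 to 71.1) against 4.55% (0.115 to 22.8), with intervals apart. Its pubertal level was not higher: it was 43.6 CPM in Krt14-positive cells and 47.2 CPM in cells with Krt8 or Krt18 only. Pubertal cell 106 held 64.8% of the former, and without the top cell of each class the levels were 15.8 and 36.1 CPM. Of 27 pubertal cells with Trp63, 11 were Krt14-positive, 10 had Krt8 or Krt18 only and 6 were in the class with none of the keratins, where Trp63 reached its highest pubertal level, 250 CPM (122 without cell 119), in 60.0% (26.2 to 87.8) of 10 cells. The Trp63 cells outside the Krt14 class carried basal genes: of 14 basal markers the median was 6.5 in the 10 luminal-keratin cells with Trp63 against 1 in the 70 without, and 8 in the 6 keratin-negative cells with Trp63 against 2 in the other 4. In the adult the level was 304 CPM in Krt14-positive cells (163 without cell 57) and 26.0 CPM, all of it from 1 cell, in cells with Krt8 or Krt18 only.

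Foxa1, Ehf and Elf3 had lower shares on the Krt14 side at both stages, but with overlapping intervals, and Elf5 was too rare to place firmly. The pubertal Foxa1 levels differed by a log2 ratio of only -0.21 (-0.99 without the top cell of each class). None of the 4 was found in any of the 5 cells with Krt14 only at either stage, although 0 of 5 allows a share of up to 60.0%. Ehf was in 13.8% (3.89 to 31.7) of Krt14-positive and 35.0% (24.7 to 46.5) of Krt8 or Krt18 only cells at puberty, at 22.1 and 150 CPM, and in 15.8% and 40.9% in the adult, at 50.4 and 475 CPM. Without the top cell of each class the Ehf levels were 7.50 and 123 CPM at puberty and 12.9 and 320 CPM in the adult. Elf5 was in 1 of 29 and 6 of 80 cells at puberty, or 3.45% and 7.50%, and in 10.5% and 18.2% in the adult. Its levels were 2.57 and 14.2 CPM at puberty and 19.5 and 37.7 CPM in the adult (3.73 and 5.46 CPM without the top cells). Elf3 was in 20.7% and 36.2% at puberty and in 5.26% (0.133 to 26.0) and 27.3% (10.7 to 50.2) in the adult. Foxa1 was in 37.9% (20.7 to 57.7) of Krt14-positive cells against 55.0% (43.5 to 66.2) at puberty, at 150.5 against 174 CPM, and in 10.5% (1.30 to 33.1) against 40.9% (20.7 to 63.7) in the adult, at 37.1 against 238 CPM. These levels rest on single cells. Pubertal cell 100 held 62.3% and adult cell 4 held 98.6% of the Foxa1 reads of the Krt14-positive class, and 1 cell held 66.1% of those of the adult luminal-keratin class. Without the top cell of each class Foxa1 was at 59.9 against 124 CPM at puberty and 0.544 against 87.4 CPM in the adult. Whether the classes differ more in the adult could not be tested.

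Gata3 and Sox9 did not separate the classes by share. Gata3 was in 29 of 29 Krt14-positive cells at puberty and in 97.5% (91.3 to 99.7) of those with Krt8 or Krt18 only, and in 89.5% and 90.9% in the adult. Its level was lower on the Krt14 side, at 500 against 636 CPM and at 573 against 1166 CPM. Sox9 was in 29 of 29 and 98.8% of cells at puberty and in 94.7% and 95.5% in the adult, at 983 against 2023 CPM and at 557 against 1089 CPM. Tbx3 was in 48.3% (29.4 to 67.5) and 45.0% (33.8 to 56.5) at puberty but in 10.5% (1.30 to 33.1) and 50.0% (28.2 to 71.8) in the adult. Grhl2 was in 44.8% (26.4 to 64.3) and 66.2% (54.8 to 76.4) at puberty and in 21.1% and 31.8% in the adult.

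By the same log2 measure, 1 of 10 factors was higher in Krt14-positive cells at puberty (Id4, 3.21) and 5 were lower (Ehf -2.52, Elf3 -1.67, Elf5 -1.34, Grhl2 -1.24 and Sox9 -1.04), where 21.8% of 9254 genes were higher and 25.4% lower. In the adult 2 were higher (Id4 5.07 and Trp63 3.32) and 6 lower, against 33.5% and 37.3% of 8246 genes. The adult factors on the lower side were Elf3 (-3.53), Ehf (-3.11), Tbx3 (-2.81), Foxa1 (-2.53), Grhl2 (-1.96) and Gata3 (-1.02). With cells of equal weight the adult Gata3 ratio was -0.87 and that of Ehf -1.51. Without the top cell of each class 1 factor was higher (Id4, 3.40) and 4 were lower at puberty, where Elf5 was under 10 CPM. In the adult 2 were then higher (Trp63 5.07 and Id4 3.62) and 6 lower, with Sox9 (-1.23) in place of Grhl2 (-0.89). Against the same luminal-keratin cells, the 5 cells with Krt14 only had 1 factor higher and 8 lower at puberty, where 21.1% of genes were higher and 51.7% lower, and 2 higher and 7 lower in the adult, where 24.1% and 58.4% were. In these 5 cells most genes were thus lower too. The 1 higher factor at puberty was Id4, at 252 against 8.54 CPM (log2 ratio 4.25). It rested on a single cell, since after thinning only 1 of the 5 pubertal cells had Id4. Leaving out the highest Id4 cell on both sides gave 0.688 against 1.59 CPM (log2 ratio -0.21). The 2 higher adult factors, Trp63 and Id4, stayed higher when this was done, at 4.07 and 1.79.

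**Figure D3:**
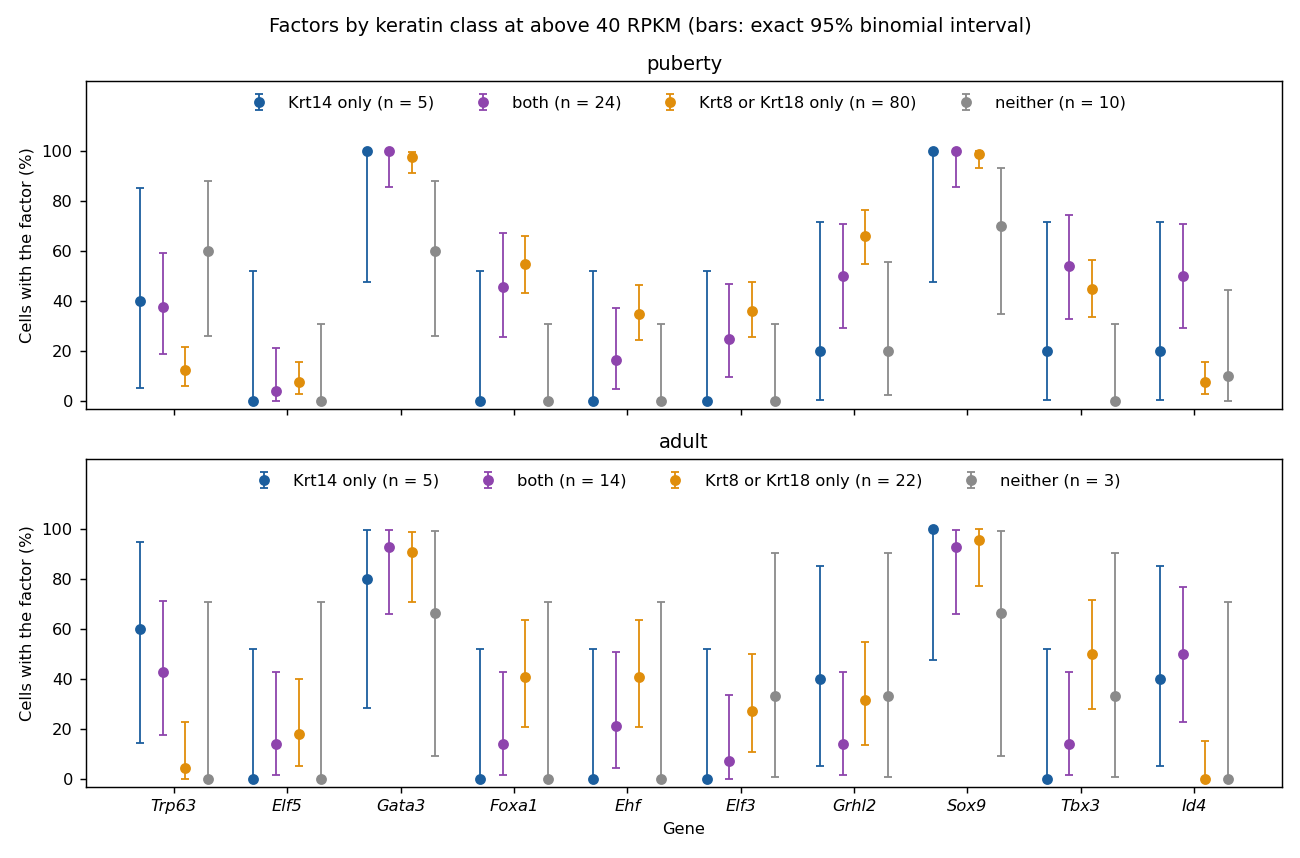
Points give the percentage of cells with each factor in 4 keratin classes at puberty (top) and in the adult (bottom), and bars the exact 95% binomial interval. Id4 and Trp63 lie higher in the Krt14 classes than in cells with Krt8 or Krt18 only, Foxa1, Ehf, Elf3 and Elf5 are at 0 in cells with Krt14 only (n = 5), and Gata3 and Sox9 are near the top in all keratin-positive classes.

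Co-detection within single cells gave 45 pairs. The measure was the phi coefficient, the correlation of presence and absence over the cells of a stage, given as a description. All factors of a cell share its library. Trp63 and Foxa1 had the lowest phi of the 45 pairs at puberty, -0.30: 5 of 119 cells had both, where the product of their shares is 12.5 cells. Without thinning 12 cells had both, where the product of the shares is 18.6, and phi was -0.25. Foxa1 was in 18.5% (6.30 to 38.1) of cells with Trp63 and in 54.3% (43.6 to 64.8) of those without. In the adult 2 of 44 cells had both and phi was -0.06, so the separation was not seen there, with 10 Trp63 cells to judge by. Trp63 and Elf3 were together in 4 pubertal cells and in 0 of the 10 adult cells with Trp63, and Ehf and Id4 in 5 pubertal and 0 adult cells. Their adult phi was -0.26 and -0.31, where the product of the shares gives only 1.8 and 2.5 cells. At puberty the product gives 7.9 and 5.4 cells. Without thinning 1 adult cell had both Trp63 and Elf3, and 0 had both Ehf and Id4.

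Foxa1 and Tbx3 went together at both stages. At puberty 34 cells had both, and Tbx3 was in 61.8% (47.7 to 74.6) of cells with Foxa1 and 25.0% (15.0 to 37.4) of those without (phi 0.37). In the adult 9 of 11 Foxa1 cells had Tbx3, or 81.8% (48.2 to 97.7), against 15.2% (5.11 to 31.9) of the others (phi 0.62). Foxa1 also met Elf3 in 24 and Grhl2 in 40 pubertal cells, both with phi at 0.29. In the adult phi was 0.14 for Foxa1 with Elf3, and Foxa1 and Grhl2 met in 3 cells, the number that the product of their shares gives.

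Elf5 and Ehf, the neighbours on chromosome 2, were found together in 4 of 7 Elf5 cells at puberty, or 57.1% (18.4 to 90.1), against Ehf in 25.0% (17.3 to 34.1) of cells without Elf5 (phi 0.17). In the adult they were together in 5 of 6 Elf5 cells, 83.3% (35.9 to 99.6), against 18.4% (7.74 to 34.3) of the others (phi 0.50). Ehf was much more widespread than Elf5, and 28 of 32 pubertal Ehf cells had no Elf5 read. Of all pubertal cells 54.6% had none of the 3 ETS factors, 16.0% Elf3 alone, 12.6% Ehf alone and 10.9% Ehf with Elf3. In the adult 59.1% had none, 13.6% had Ehf alone and 11.4% Elf3 alone.

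Trp63 and Id4 were together in 7 pre-pubertal, 8 pubertal and 5 adult cells, with phi at 0.22, 0.19 and 0.40. Gata3 and Sox9 were together in 112 of 119 pubertal and 37 of 44 adult cells, where the product of their shares gives 109.2 and 36.3. The pubertal phi of 0.60 for this pair rests on the 7 cells that lacked one or both. Before puberty Gata3 and Sox9 were together in 15 cells, and Sox9 was in 65.2% (42.7 to 83.6) of cells with Gata3 and 25.8% (17.3 to 35.9) of those without.

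**Figure D4:**
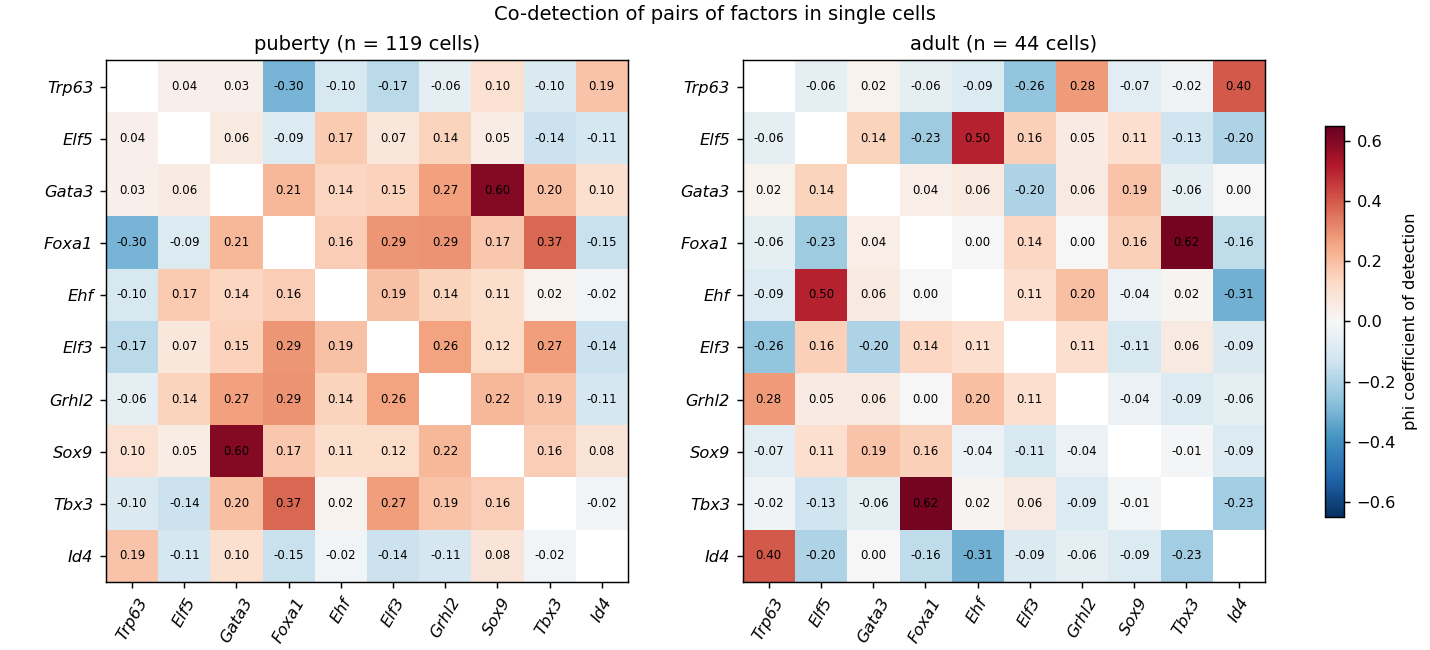
Each square gives the phi coefficient of detection for a pair of factors over the cells of puberty (left, n = 119) or the adult (right, n = 44), red for pairs found together and blue for pairs found apart. Foxa1 with Tbx3 is red at both stages (0.37 and 0.62), Elf5 with Ehf reaches 0.50 in the adult, and Trp63 with Foxa1 is blue at puberty (-0.30).

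Elf5 and Foxa1 lay in luminal cells of different marker content. A pair of lists of 10 genes that hold none of the factors were used, 1 of luminal progenitors (Kit, Aldh1a3, Cd14 and others) and 1 of mature luminal cells (Esr1, Pgr, Prlr and others). Among Krt8 or Krt18-positive cells those with Elf5 had a median of 8 progenitor markers at puberty (n = 7) and 7 in the adult (n = 6), against 2 and 3 in those without. Cells with Foxa1 had a median of 1 and 2 progenitor markers, against 3 and 4, and of 5 and 6 mature markers, against 4 and 2. Only 2 pubertal cells and no adult cell in this class had both factors, and neither of those 2 was among the cells with the most progenitor markers. Elf5 was rare, and over all cells of a stage the product of the shares of Elf5 and Foxa1 is only 3.2 and 1.5 cells. Without thinning 4 pubertal cells and 1 adult cell had both, where the products are 5.5 and 1.8. These numbers are too small to show whether the 2 factors exclude each other. Among Krt8 or Krt18-positive cells those with Id4 had a median of 9.5 and 11 of 14 basal markers, against 1 and 5. This class includes cells that also had Krt14. Of the Id4 cells in it, 12 at puberty and 7 in the adult had both keratins, and 6 and 0 had Krt8 or Krt18 only. Cells with both keratins had medians of 10 and 10.5 basal markers. The contrast is thus not separate from that of Id4 with Krt14.

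**Figure D5:**
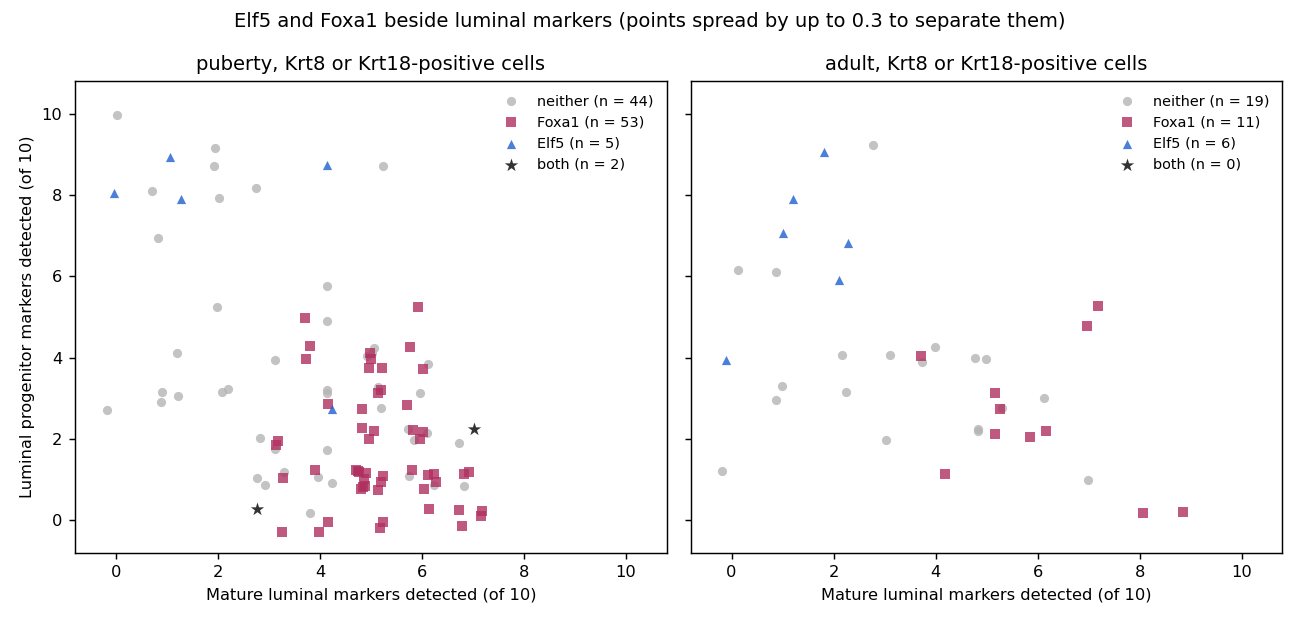
Each point is a Krt8 or Krt18-positive cell at puberty (left) or in the adult (right), placed by how many of 10 mature luminal markers (x axis) and 10 luminal progenitor markers (y axis) it had, and marked by the presence of Elf5 (blue triangles), Foxa1 (red squares), both (black stars) or neither (grey). Foxa1 cells sit low on the progenitor axis, most Elf5 cells sit high, and several grey cells share the region of the Elf5 cells.

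For each factor the 3 genes with the most similar pattern were taken by Pearson's r of log2(CPM + 10) over the 163 pubertal and adult cells, among 7191 genes found in at least 10% of them. For Elf5 they were Trf (transferrin, 0.52), Muc15 (0.46) and Fcgbp (0.45), and for Ehf Plet1 (0.48), Wfdc18 (0.45) and Trf (0.39). Trf, Plet1 and Wfdc18 are on the progenitor marker list. For Trp63 they were Apoe (0.50), the basal keratin Krt5 (0.43) and Il17b (0.42), and for Id4 Vwa1 (0.60), Lhfp (0.51) and Ecrg4 (0.50). Foxa1 was nearest to AW112010 (0.57), Wfdc2 (0.51) and Nck2 (0.47), Sox9 to AW112010 (0.60), Il33 (0.55) and Cited1 (0.53), and Tbx3 to Cemip2 (0.43), Tlcd4 (0.40) and AW112010 (0.40). Gata3 was nearest to Ptn (0.39), the prolactin receptor Prlr (0.39) and Nck2 (0.39). The values for Elf3 (Marveld3, 0.42, Ncapg2, 0.38, and Ppp1r2-ps2, 0.34) and for Grhl2 (Hbp1, 0.39, Setbp1, 0.37, and Rdm1, 0.35) are the remaining ones. Several of these genes followed their factor at 1 stage more than at the other. At puberty and in the adult r was 0.60 and 0.06 for Il33 with Sox9, 0.52 and 0.18 for Il17b with Trp63, and 0.67 and 0.22 for Lhfp with Id4. For the 3 genes of Ehf it was higher in the adult, as for Wfdc18 (0.30 and 0.80). It was alike at both stages for Apoe with Trp63 (0.50 and 0.50) and Marveld3 with Elf3 (0.42 and 0.41).

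Other regulators were read from 2 lists, 16 close relatives of the 10 factors and 30 further mammary transcription regulators. Among relatives at 10 CPM or more, 2 of 10 were higher and 4 lower at puberty than before it, and among the 30 regulators 12 of 23 were higher and 1 lower, where 24.0% of all genes were higher and 21.4% lower. The medians were -0.29 for relatives and 1.07 for regulators, against 0.12 for all genes. In the adult against pre-puberty the counts were 3 of 10 higher and 2 lower for relatives and 13 of 24 higher and 4 lower for regulators, against 28.9% and 31.7% of all genes. Cited1, a co-regulator in hormone-sensing cells, went from 13.6 CPM to 649 and 642, Trps1, a GATA-type repressor, from 39.3 to 719 and 1099, and the progesterone receptor Pgr from 0.0246 CPM, 1 read, to 81.0 and 113. On the lower side were Sox10, given above, Id2 and Id1, relatives of Id4 (468 to 124 and 93.6 to 25.2 CPM at puberty), and in the adult Hes1, a Notch target (420 to 155.9), and Snai2 (44.3 to 14.9). Id2 and Id1 thus had log2 ratios of -1.87 and -1.71 where that of Id4 was 1.22.

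Between adult and puberty 3 of 11 relatives were higher and 1 lower, and of 22 regulators 4 were higher and 1 lower, where 20.7% of all genes were higher and 28.4% lower. Of the 7 higher ones Id2 (1.02) and Cebpb (1.21) were still higher by over 1 log2 unit without the top cells, while Xbp1 (0.98) and Gata2 (0.93) were just under it. The other 3 rested on single cells: Trp73, a relative of Trp63, had 22.5 CPM in the adult against no read at puberty and a ratio of 0 without its top cell, the oestrogen receptor Esr1 went from 1.77 to -0.15, and Prdm1 from 1.84 to 0.80. Snai2, a basal factor, was lower in the adult (14.9 against 65.8 CPM, log2 ratio -1.83), and without the top cells the ratio was -3.34. Elf2 and Nfib were at -0.91 and -0.90.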

How the data were processed

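Single-cell RNA-seq was made by the authors on the Fluidigm C1 system, which makes full-length cDNA from polyadenylated RNA without molecular identifiers. The deposited values are raw counts of reads per Entrez gene in each cell. Per the labels and the submitters' processing notes, the authors mapped reads to mm10 with Subread 1.4.6 and counted them with featureCounts. How reads shared by near-identical genes were treated is not given in the sources used here, so Krt8 and Krt18, which have pseudogenes, are uncertain.

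From these counts, 25142 of 27179 genes were kept after removing 1904 without a RefSeq match, 15 mitochondrial and 118 ribosomal protein genes. A cell needed 100000 reads and 1500 genes, as in the study. No doublet caller was run, since the authors inspected the wells. No 2 cells had identical counts. Stage levels are pooled CPM with exact Poisson intervals, shares have exact (Clopper-Pearson) intervals at 95%, and a count of 0 is given a limit of 3 counts. Detection was taken after thinning every cell to 100000 reads. Presence at above 40 RPKM, computed from the counts and the deposited gene lengths, set the keratin classes. Ratios took 5 CPM added on both sides, and the background is all genes at 10 CPM or more on either side. No test was made between stages, since each is 1 sample. The calculations were tested on simulated cells. Alternatives changed the filter, the scaling, the prior, the detection rule and the keratin threshold. The 10 factors and all lists were chosen with earlier results of these data known. Further genes were named by rule: from the lists of relatives and regulators the 3 largest log2 ratios in each direction per pair of stages at 20 CPM or more at the higher stage, and the 3 most similar genes of each factor. The combined Krt14-positive class was chosen after seeing that 5 cells had Krt14 only. Python 3.11.15, numpy 2.4.6, scipy 1.17.1, edgeR 4.0.16 and DESeq2 1.42.0 (the last 2 only for scaling factors, in R 4.3.3) were used.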

Additional observations from a re-analysis of the deposited data

Results flagged for a closer look

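The 67 cells below the coverage filter were in no comparison, and the summed level of the 10 factors in them was above the limit that 3 reads allow at each stage. It was 727 CPM in 28 pre-pubertal cells, of which 1 cell held 73.9% of the reads (196 CPM without it), 1421 CPM in 17 pubertal cells and 1622 CPM in 22 adult cells. The limits were 5.64, 4.02 and 6.88 CPM, and the kept cells stood at 191, 2732 and 2482 CPM.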

How the results depend on the processing

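Of 330 log2 ratios of single factors under the alternatives, 309 stayed on the same side of 1 log2 unit, 19 crossed it and 2 changed sign. Both sign changes came from cells with 200000 to 600000 reads only (92, 62 and 26 cells): Id4, puberty over pre-puberty, became -0.081, and Elf5, adult over puberty, became -0.98. In those cells 5 factors were higher in the adult than before puberty, and 1 was higher and 3 lower in the adult than at puberty. With equal weight for each cell 2 were lower in the adult than at puberty, and without the top cell of each stage 1 was higher and 2 lower. The cause was not tested. The counts of puberty over pre-puberty stayed within 1.5 times under every alternative run. DESeq2 size factors shifted every ratio of puberty over pre-puberty by -0.19 and every ratio of adult over puberty by 0.21.

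Of 120 shares of cells by stage under the alternatives, 25 moved outside the interval of the main result. So did 15 of 200 shares by keratin class and 8 of 48 co-detection counts, taken as shares of cells. Asking for at least 5 reads after thinning put the pubertal median at 3 factors per cell, Trp63 with Foxa1 in 1 and Foxa1 with Tbx3 in 15 pubertal cells, Trp63 in 17.2% of pubertal Krt14-positive cells and Id4 in 2.50% of those with Krt8 or Krt18 only. Without thinning, Trp63 and Foxa1 met in 12 pubertal cells, where the product of the unthinned shares is 18.6. With keratins above 10 RPKM, or at 1 read after thinning, Trp63 was in 0% of adult cells with Krt8 or Krt18 only. Leaving out adult cell 57 was added after seeing the data and changed no count named here by over 1.5 times. No paired analysis was possible because cell numbers only name cells and no test was made. With 1 sample a stage, differences between mice, sorts or chips cannot be told apart from differences between stages. With 44 adult cells, a factor seen in none of them could still be in up to 6.82% of cells.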
